A study of Mus musculus with 75 samples.

Results

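Messenger RNA of 9 genes that encode the adaptors and ubiquitin ligases around the tumor necrosis factor (TNF) receptors was followed through a TNF time course in mouse embryonic fibroblasts (MEFs). The genes were the death-domain adaptor genes Tradd and Ripk1, the TRAF family genes Traf1, Traf2, Traf3, Traf5 and Traf6, and Birc2 and Birc3, which encode the ligases cIAP1 and cIAP2. They were taken by symbol from a list of the complex and were 9 of the 45706 gene entries counted. The list was chosen with earlier results of these data known. All 9 passed the filter on low counts.

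When TNF binds its receptor TNFR1, TRADD and RIPK1 assemble on the receptor's death domain, TRAF2 and TRAF5 join them, and TRAF2 brings in cIAP1 and cIAP2, which attach ubiquitin chains to RIPK1 that gather the kinases of the NF-kB pathway. Away from this receptor, TRAF2, TRAF3 and the cIAPs form a complex that keeps the kinase NIK low and with it the noncanonical NF-kB pathway, while TRAF1 binds TRAF2 and TRAF6 serves mainly interleukin-1 and Toll-like receptors. Several of these genes are known NF-kB targets, so the pathway feeds back on its own adaptors.

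All cells had the genotype p53-/-crel-/-rela-/- on a C57BL/6 background and carried the retroviral vector pBABE-puro, so the tested RelA came from a vector and not from its own locus. The vector was empty (EV) or encoded a RelA protein, and RelA is the NF-kB subunit that carries the transactivation domains TA1 and TA2. EV, RelA-dTAD (transactivation domain deleted), RelA-dTA1 (TA1 deleted) and RelA-WT had 2 libraries at each time, 1 from each of the 2 deposited sets. RelA-DB and RelA-dCterm had 1 library per time in set 1. RelA-TA2_CI_S467A-dTA1, RelA-TA2_CI-dTA1, RelA-TA2_CI_S467A, RelA-TA2_CI and RelA-TA2_S467A had 1 per time in set 2. The labels do not spell out DB, dCterm or CI, and they do not say whether a line was a clone or whether replicates were separate cultures, so every p-value speaks only of library-to-library spread, which may be technical. After a night in 0.5% serum, cells were taken before TNF (0 h) and after 0.5, 1, 3 and 8 h of 10 ng/ml TNF, giving 75 libraries. No cells kept without TNF were taken at the later times, so a TNF change includes any change with time alone.

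Sequencing depth ran from 4422396 to 6915919 counted reads across set 1 (30 libraries) and from 10440202 to 22908738 across set 2 (45 libraries). Rela stood at 15.6 to 30.3 CPM (reads scaled to library size) in EV and at 531 or more in every other construct. Its level reached 6650 CPM in RelA-dTAD, 2590 in RelA-dTA1 and 1770 in RelA-WT. It reached 3850 CPM in RelA-TA2_CI_S467A-dTA1, 3830 in RelA-TA2_CI-dTA1, 2630 in RelA-TA2_CI and 2000 in RelA-TA2_CI_S467A. The highest levels were 1920 CPM in RelA-TA2_S467A, 1760 in RelA-DB and 1730 in RelA-dCterm. How much this vector RNA bears on the differences below was not tested. Rel was at 16.3 to 50.6 CPM and Trp53 at 26.3 to 81.4 CPM in all libraries although both genes are disrupted, and a count over a whole gene does not say which exons the reads came from. All 9 fibroblast markers were present in every library (Col1a1 at 10600 CPM or more). Of the 10 markers of other cell types, the leukocyte gene Ptprc had no read in 46 libraries, the macrophage gene Adgre1 none in 71 and the keratinocyte gene Krt5 none in 70. Pecam1 had none in 20 libraries, Cdh5 in 16, Epcam in 2 and Csf1r in 1. The others had reads in every library: Kdr at 15.6 to 44.1 CPM, Cd68 at 1 to 4.24 and Cdh1 at 0.835 to 4.25.

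In cells with RelA-WT, TNF raised the messages of the ligases Birc2 and Birc3 and of Traf1, Traf2 and Traf3, while the receptor-proximal adaptor Tradd and the interleukin-1 receptor adaptor Traf6 passed no test of a TNF change. The average TNF change, in which 0.5, 1, 3 and 8 h were averaged and set against 0 h of the same construct, was called for 5 of the 9 genes, all higher, where 8.67% of all 13665 genes were called (edgeR quasi-likelihood test, adjusted p under 0.05 by Benjamini-Hochberg over all genes). At 3 h 7 of the 9 were called, against 16.3% of all genes, and at 8 h again 7, against 27.4%; these were the same 5 genes with Ripk1 and Traf5. Over the 4 TNF times 16 of 36 pairs of gene and time were called, against 11.9% of all such pairs. The median average change of the 9 genes was 0.39 on the log2 scale, and that of all genes was -0.02. Without either RelA-WT set, 3 of 9 were called on average.

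In EV, and in RelA-dTAD, which lacks the transactivation domain, fewer average changes and fewer pairs of gene and time were called than in RelA-WT, a difference in counts that was not tested. Nearly all of their calls came at 8 h. In EV 2 of 9 genes were called on average, against 13.5% of all genes, and 7 of 36 pairs of gene and time, against 13.5% of pairs. All 7 lay at 8 h (6 higher and Birc2 lower), a time at which 48.7% of all genes were called in EV. In RelA-dTAD 1 of 9 genes was called on average, against 10.7% of all genes, and 6 of 36 pairs, against 12.7%; 5 of the 6 lay at 8 h, when 46.9% of all genes were called. RelA-dTA1 had 5 of 9 genes called on average, against 10.1% of all genes, and 14 of 36 pairs, against 12.8%; at 8 h 7 of 9 were called, against 34.6%. The median average change of the 9 genes was 0.15 in EV, 0.18 in RelA-dTAD and 0.32 in RelA-dTA1. These counts lean on both sets: without either of its sets, EV and RelA-dTAD had 0 of 9 genes called on average, EV had 3 or 4 pairs and RelA-dTAD 3, and RelA-dTA1 had 2 of 9 without set 1.

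**Figure D1:**
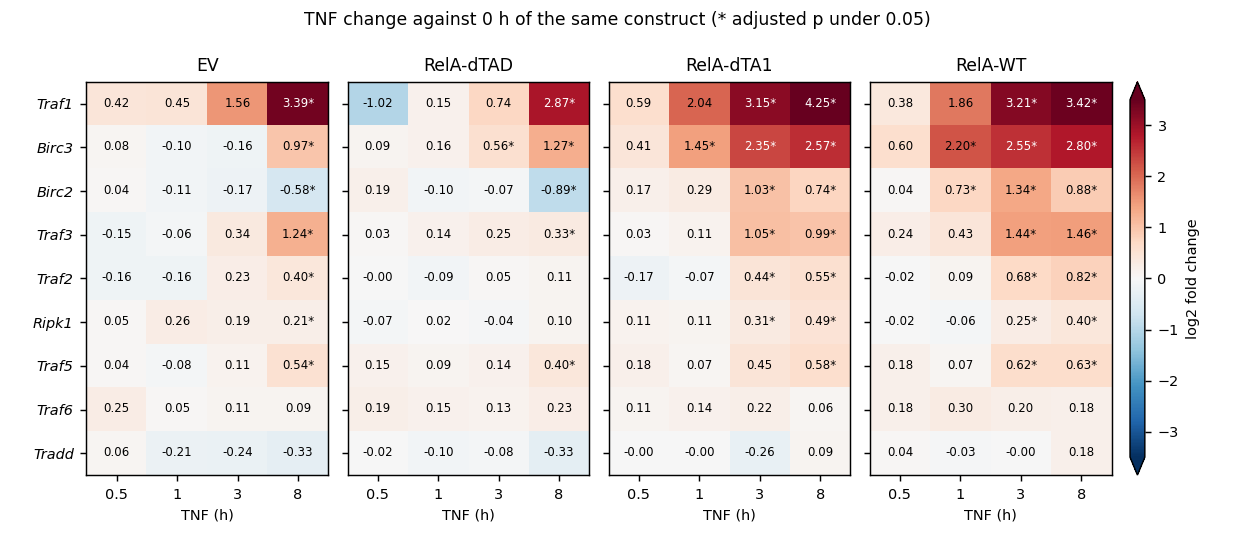
Log2 TNF change of each gene against 0 h of the same construct (rows, genes; columns, hours of TNF; 1 panel for each of the 4 replicated constructs), with an asterisk where the adjusted p was under 0.05. Calls began at 1 h in RelA-WT and RelA-dTA1, and stood at 8 h only in EV.

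Before TNF the 9 messages differed widely in abundance. Per kilobase of exon, at 0 h over the 15 libraries, the median level was 10.5 CPM per kb for Tradd, 10.2 for Ripk1, 7.09 for Birc2, 5.94 for Traf2, 5.93 for Traf3, 4.18 for Traf6, 3.97 for Traf5, 3.34 for Birc3 and 0.0728 for Traf1. Only 2 neighbours in this order did not overlap across libraries. Ripk1 (9.37 to 11.2) lay above Birc2 (5.91 to 8.2), and Birc3 (2.5 to 3.75) lay above Traf1 (0 to 0.142), a gene with at most 19 reads in any 0 h library. None of the 9 unstimulated levels was called in EV, RelA-dTAD or RelA-dTA1 against RelA-WT, where 0.563%, 0.0293% and 0% of all genes were called. At an unadjusted p under 0.05 the counts were 1, 0 and 0 of 9, and the DESeq2 Wald test also called 0 of 9 in each.

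Among the 4 replicated constructs, called differences of the average TNF change lay in Birc3, Birc2 and Traf3. At single times they also lay in Traf2 and Ripk1, both for RelA-dTAD. EV minus RelA-WT was called for 2 of 9 genes on average, both lower in EV, against 1.77% of all genes, and for 6 of 36 pairs of gene and time, all lower, against 5.48%. RelA-dTAD minus RelA-WT was called for 3 of 9 genes, all lower, against 1.05% of all genes, and for 10 of 36 pairs, all lower, against 4%. Each average count was 1 without set 2 of RelA-WT or without either set of the construct compared with it. RelA-dTA1 minus RelA-WT was called for 0 of 9 genes on average, against 0% of all genes, and for 0 of 36 pairs, against 0.00366%. At an unadjusted p under 0.05 these were 2 of 9 genes and 3 of 36 pairs, and the DESeq2 Wald test called none. RelA-dTAD minus EV was likewise called for 0 of 9 genes, against 0%, and 0 of 36 pairs, against 0.00183%, with 1 of 9 and 4 of 36 at an unadjusted p under 0.05 and none by the DESeq2 Wald test. With the set as replicate block Traf3 passed at 8 h in this comparison (adjusted p = 0.00276), and also without the filter on low counts (adjusted p = 0.0242). A p above the threshold does not show that these constructs act alike. The comparisons with RelA-WT share the RelA-WT libraries and are not independent of each other.

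**Figure D2:**
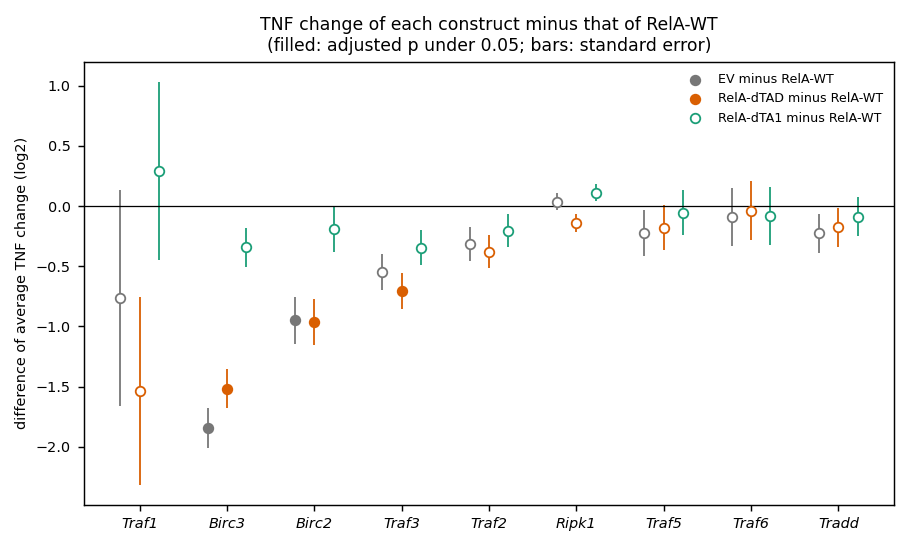
Difference of the average TNF change (log2, y axis) of EV, RelA-dTAD and RelA-dTA1 from that of RelA-WT for each gene, with standard error bars. Filled points have an adjusted p under 0.05: Birc3 (EV -1.84, RelA-dTAD -1.51), Birc2 (EV -0.95, RelA-dTAD -0.96) and Traf3 (RelA-dTAD -0.71), all below 0.

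Birc3 encodes the ligase cIAP2 and was called higher by 1 h of TNF in RelA-WT. The bases before the annotated starts of the 2 ligase genes, which lie next to each other on chromosome 9, are shown because their messages rose together in RelA-WT while only Birc3 rose in EV and RelA-dTAD at 8 h. The stretches are chr9:7837065-7837177 (minus strand, -120 to -8 from the start) for Birc2 and chr9:7873187-7873290 (minus strand, -120 to -17) for Birc3, from RefSeq on GRCm38.p6.
Birc2: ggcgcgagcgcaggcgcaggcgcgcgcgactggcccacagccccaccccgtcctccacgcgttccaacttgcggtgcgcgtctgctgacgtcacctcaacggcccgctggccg
Birc3: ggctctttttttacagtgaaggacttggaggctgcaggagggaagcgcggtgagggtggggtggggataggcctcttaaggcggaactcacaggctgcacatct
Capitals would mark a match to the NF-kB consensus motif on either strand, and neither stretch has one. Of 32851 mouse promoters, 3.9% hold it in the 250 bases before the start. A missing match says only that these letters are not in this window.

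In EV, Birc3 stood at 16.7 and 12.5 CPM at 0 h, 16.5 and 14.2 at 0.5 h, 12.9 and 13.7 at 1 h, 13.5 and 12.5 at 3 h, and 25.8 and 29.0 at 8 h in the set 1 and set 2 libraries. In RelA-dTAD it stood at 17.4 and 17.6, 17.4 and 19.6, 19.1 and 20, 24.8 and 26.6, and 45.1 and 39.0 CPM at the same times. Both constructs thus stayed near their 0 h level through 1 h, and their 8 h libraries lay above all of their earlier ones. In RelA-dTA1 Birc3 stood at 18.8 and 17.6, 25.2 and 23.2, 44.1 and 53.4, 82.5 and 99.8, and 106 and 109 CPM. In RelA-WT it stood at 18.0 and 15.9, 22.1 and 28.2, 71.7 and 82.0, 92.3 and 104, and 127 and 109 CPM. From 1 h on, every library of RelA-dTA1 and RelA-WT lay above every library of EV and RelA-dTAD of that time, and at 1 h RelA-dTA1 also lay below RelA-WT without overlap.

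The average TNF change of Birc3 was 0.20 ± 0.12 in EV (log2 ± SE, adjusted p = 0.32), 0.52 ± 0.12 in RelA-dTAD (adjusted p = 0.00436), 1.70 ± 0.12 in RelA-dTA1 (adjusted p = 1.28e-09) and 2.04 ± 0.13 in RelA-WT (adjusted p = 4.75e-11). In EV the 8 h change was called alone, at 0.97 ± 0.15 (adjusted p = 9.18e-06). In RelA-WT the change was already 2.20 ± 0.14 at 1 h (adjusted p = 1.44e-10) and 0.60 ± 0.15 at 0.5 h, where it passed with the set as replicate block (adjusted p = 0.00885) and ran up to 1 over the alternatives. EV minus RelA-WT was -2.30 at 1 h, -2.70 at 3 h and -1.83 at 8 h, and RelA-dTAD minus RelA-WT was -2.04, -1.99 and -1.53; the SE of each was 0.20 or 0.21 and the largest adjusted p was 1.29e-05. RelA-dTA1 minus RelA-WT was largest at 1 h, at -0.76 ± 0.20, with an unadjusted p of 0.000876 and an adjusted p of 0.576. RelA-dTAD minus EV was 0.72 ± 0.21 at 3 h, with an unadjusted p of 0.00228 and an adjusted p of 1. The average rise in RelA-dTAD and its rise at 3 h (0.56 ± 0.14, adjusted p = 0.0303) ended as calls without either RelA-dTAD set, while the value moved between 0.51 and 0.53 and between 0.53 and 0.60. The 3 h rise also ended as a call without the filter on low counts (adjusted p = 0.0507).

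**Figure D3:**
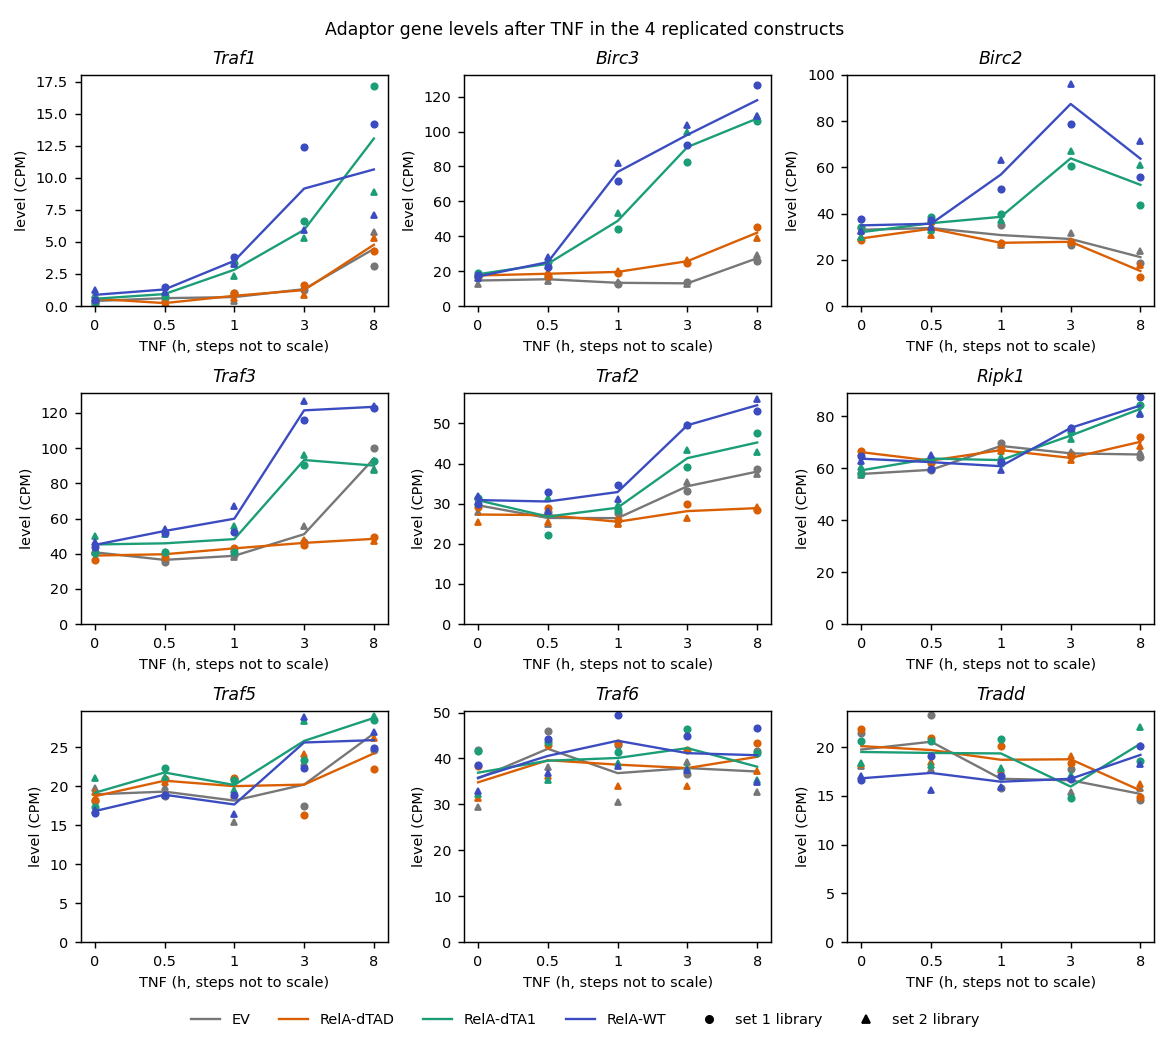
Level of each of the 9 genes (CPM, y axis from 0) against hours of TNF (steps not to scale) in EV, RelA-dTAD, RelA-dTA1 and RelA-WT; points are single libraries (circles set 1, triangles set 2) and lines join the means of 2. Birc3, Birc2 and Traf3 separate RelA-WT from EV and RelA-dTAD by 3 h, Traf3 of EV climbs between 3 and 8 h, and Traf6 overlaps among the constructs at 8 h.

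Birc2 encodes cIAP1 and was the 1 gene of the set called lower in some of the 4 replicated constructs and higher in others. In EV it stood at 33.7 and 32.3 CPM at 0 h, 35.2 and 26.2 at 1 h, 26.6 and 31.4 at 3 h, and 18.6 and 23.7 at 8 h (set 1 and set 2). In RelA-dTAD it stood at 28.6 and 29.9, 27.4 and 27.3, 27.5 and 28.1, and 12.4 and 17.9 CPM at these times. The 8 h libraries of EV and RelA-dTAD were the lowest of their constructs. In RelA-dTA1 Birc2 stood at 34.1 and 29.8, 40 and 37.2, 60.8 and 67.0, and 43.8 and 61.1 CPM. In RelA-WT it stood at 37.5 and 32.3, 50.5 and 63.3, 78.9 and 96.0, and 55.9 and 71.6 CPM. Both of these constructs peaked at 3 h, with RelA-WT above RelA-dTA1 without overlap at 1 and 3 h, and at 8 h their libraries overlapped.

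At 8 h Birc2 fell by 0.58 on the log2 scale in EV (SE 0.18, adjusted p = 0.00944) and by 0.89 in RelA-dTAD (SE 0.18, adjusted p = 0.000264). Of all genes tested, 24.4% in EV and 13.7% in RelA-dTAD had a lower 8 h change. Birc2 rose by 1.03 ± 0.17 in RelA-dTA1 (adjusted p = 0.000106) and by 1.34 ± 0.17 in RelA-WT (adjusted p = 2.66e-06) at 3 h. EV minus RelA-WT was -1.51 ± 0.24 at 3 h (adjusted p = 0.000268) and -1.46 ± 0.25 at 8 h (adjusted p = 0.000155), and RelA-dTAD minus RelA-WT was -1.41 ± 0.24 (adjusted p = 0.000797) and -1.77 ± 0.25 (adjusted p = 2.75e-05). At 1 h the differences were -0.84 and -0.83, and both passed with the replicate block (adjusted p = 0.0324 and 0.0347, with ranges up to 1 over the alternatives). At 1, 3 and 8 h the set 2 library of RelA-WT was the higher one. Without set 2 of RelA-WT the average rise in RelA-WT was 0.53 in place of 0.75, and its adjusted p, 0.00081 in the full fit, was 0.171. Without them the 1 h rise of 0.73 (adjusted p = 0.0123) was 0.44 (adjusted p = 0.95), and the 8 h rise of 0.88 (adjusted p = 0.000373) was 0.59 (adjusted p = 0.107). The average differences, -0.95 for EV (adjusted p = 0.00768) and -0.96 for RelA-dTAD (adjusted p = 0.0105), became -0.74 (adjusted p = 0.278) and -0.75 (adjusted p = 0.382) without them. They also ended as calls without either EV set (-0.91 and -1.03, adjusted p up to 0.111) or either RelA-dTAD set (-0.97 and -0.99, adjusted p up to 0.158), and the 3 h difference of RelA-dTAD did without set 2 of RelA-WT (-1.16, adjusted p = 0.0635). The average rise in RelA-dTA1 (0.56, adjusted p = 0.00997) also ended as a call without either RelA-dTA1 set, and its 8 h rise (0.74, adjusted p = 0.00144) without set 2, as did the 8 h fall in EV without set 1 of EV (-0.42, adjusted p = 0.229).

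Traf1 encodes a TRAF without a RING domain that binds TRAF2, and its level stayed low in all 4 replicated constructs. In EV it had 1 and 8 reads at 0 h, 7 and 17 at 3 h and 13 and 56 at 8 h in the set 1 and set 2 libraries. In RelA-dTAD it had 2 and 16, 9 and 17, and 21 and 80 reads. In RelA-dTA1 it had 2 and 17, 36 and 77, and 85 and 168 reads, and in RelA-WT 3 and 16, 62 and 62, and 70 and 92 reads. In CPM the 8 h levels were 3.11 and 5.80 in EV, 4.28 and 5.28 in RelA-dTAD, and higher at 17.2 and 8.93 in RelA-dTA1 as well as at 14.2 and 7.11 in RelA-WT. All of these 8 h libraries lay above all 0 h libraries of the 4 constructs, where the level was at most 1.26 CPM, and at 8 h EV and RelA-dTAD lay below RelA-dTA1 and RelA-WT without overlap. The 8 h change was 3.39 ± 0.67 in EV (adjusted p = 0.000169), 2.87 ± 0.59 in RelA-dTAD (adjusted p = 0.000332), 4.25 ± 0.57 in RelA-dTA1 (adjusted p = 3.14e-06) and 3.42 ± 0.57 in RelA-WT (adjusted p = 6.65e-05). Traf1 thus passed at 8 h in every replicated construct, and no difference between constructs was called; the most negative, RelA-dTAD minus RelA-WT at 3 h, was -2.47 ± 0.91 with an adjusted p of 0.214, and 0.0196 to 1 over the alternatives. The average rise in RelA-WT (2.22 ± 0.52, adjusted p = 0.00599) and in RelA-dTA1 (2.51 ± 0.52, adjusted p = 0.0022) rested on set 1, without which they were 1.48 (adjusted p = 0.369) and 1.96 (adjusted p = 0.167). The 3 h rise in RelA-WT, 3.21 ± 0.57 (adjusted p = 0.000236), was 2.23 without set 1 (adjusted p = 0.0791), and the 1 h change in RelA-dTA1 (2.04, adjusted p = 0.123) passed with the replicate block at 0.0486.

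The bases before the starts of Traf1 and Traf3 are shown for the contrast between them, a message with an 8 h rise of more than 2 log2 units in each replicated construct and one whose 8 h change was 1.24 in EV and 0.33 in RelA-dTAD. They are chr2:34961773-34961892 (minus strand) and chr12:111166250-111166369 (plus strand), both -120 to -1 from the start, from RefSeq on GRCm38.p6.
Traf1: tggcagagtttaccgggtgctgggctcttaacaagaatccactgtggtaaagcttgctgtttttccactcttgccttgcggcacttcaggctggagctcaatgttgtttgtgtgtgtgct
Traf3: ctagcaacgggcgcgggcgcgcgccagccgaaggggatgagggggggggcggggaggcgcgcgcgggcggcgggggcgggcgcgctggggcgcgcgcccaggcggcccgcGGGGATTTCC
Capitals mark the NF-kB consensus match of Traf3, at -10 to -1. Among the 8 genes of the set with a promoter entry (Tradd had none), Traf3 held the single match to the consensus. It is a match of letters, not a shown binding site.

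Traf3 encodes the TRAF that links NIK to TRAF2 and the cIAPs, and its 8 h libraries of EV and RelA-dTAD lay far apart. In EV it stood at 40.8 and 40.8 CPM at 0 h, 39.3 and 38.3 at 1 h, 46.5 and 55.7 at 3 h, and 99.9 and 88.3 at 8 h (set 1 and set 2). In RelA-dTAD it stood at 36.6 and 41.3, 43.3 and 42.8, 44.7 and 47.6, and 49.5 and 47.4 CPM. At 8 h both EV libraries lay at 88.3 CPM or more and both RelA-dTAD libraries below 50. In RelA-dTA1 Traf3 stood at 40.5 and 50.0, 40.7 and 55.9, 90.5 and 96.0, and 92.5 and 87.7 CPM, and in RelA-WT at 43.6 and 46.4, 52.4 and 67.4, 116 and 127, and 123 and 124 CPM. RelA-WT and RelA-dTA1 had reached their 8 h level by 3 h, and RelA-WT lay above every other replicated construct at 3 and 8 h.

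The 8 h change of Traf3 was 1.24 ± 0.13 in EV (adjusted p = 5.14e-08), 0.33 ± 0.13 in RelA-dTAD (adjusted p = 0.0497), 0.99 ± 0.13 in RelA-dTA1 (adjusted p = 2.62e-06) and 1.46 ± 0.13 in RelA-WT (adjusted p = 1.31e-08). At 3 h it was 0.34 ± 0.13 in EV (adjusted p = 0.171, and 0.0276 with the replicate block), 0.25 ± 0.13 in RelA-dTAD (adjusted p = 0.438), 1.05 ± 0.13 in RelA-dTA1 (adjusted p = 2.62e-06) and 1.44 ± 0.13 in RelA-WT (adjusted p = 1.78e-08). At 1 h RelA-WT had 0.43 ± 0.13 (adjusted p = 0.0912, and 0.0067 with the block). EV minus RelA-WT was -1.10 ± 0.19 at 3 h (adjusted p = 0.000519) and -0.22 ± 0.19 at 8 h (adjusted p = 0.495). RelA-dTAD minus RelA-WT was -1.20 ± 0.19 at 3 h (adjusted p = 0.000301) and -1.13 ± 0.19 at 8 h (adjusted p = 0.000206). RelA-dTAD minus EV at 8 h, a comparison added after the levels had been seen, was -0.91 ± 0.19, with an unadjusted p of 6.53e-05 and an adjusted p of 0.223. It passed with the replicate block (adjusted p = 0.00276) and without the filter on low counts (adjusted p = 0.0242), and its adjusted p ran from 0.00276 to 1 over the 8 alternatives. The average difference of EV from RelA-WT, -0.55 ± 0.15 (adjusted p = 0.0634), passed with the block (adjusted p = 0.0032, and 0.0032 to 0.404 over the alternatives). That of RelA-dTAD, -0.71 ± 0.15 (adjusted p = 0.016), ended as a call without any 1 set of RelA-dTAD or RelA-WT, at -0.63 to -0.78 and an adjusted p of up to 0.341. The 8 h call in RelA-dTAD ended under 4 of 6 alternatives, with 0.21 and 0.46 without set 1 and set 2. The average call in EV (0.34 ± 0.11, adjusted p = 0.036) ended without either EV set (0.35 and 0.31). That call also ended without the filter on low counts (adjusted p = 0.0738).

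Traf2, the adaptor that carries the cIAPs to the receptor, followed Traf3 at a smaller scale. At 0 h, 3 h and 8 h it stood at 31.2 and 28, 33.2 and 35.5, and 38.7 and 37.3 CPM in EV, and at 29.1 and 25.5, 29.8 and 26.5, and 28.5 and 29.3 CPM in RelA-dTAD (set 1 and set 2). At the same times it stood at 31.4 and 30.3, 39.2 and 43.5, and 47.5 and 43.0 CPM in RelA-dTA1, and at 30.0 and 31.8, 49.6 and 49.5, and 53.1 and 56.0 CPM in RelA-WT. The 8 h libraries lay in the order RelA-dTAD, EV, RelA-dTA1 and RelA-WT from low to high, with no overlap between neighbours. The 8 h rise was called in EV (0.40 ± 0.12, adjusted p = 0.0105), RelA-dTA1 (0.55 ± 0.12, adjusted p = 0.000976) and RelA-WT (0.82 ± 0.12, adjusted p = 1.72e-05), and the value in RelA-dTAD was 0.11 ± 0.12 (adjusted p = 0.497). RelA-dTAD minus RelA-WT was -0.64 ± 0.17 at 3 h (adjusted p = 0.0429) and -0.71 ± 0.17 at 8 h (adjusted p = 0.00764). EV minus RelA-WT at 8 h was -0.42 ± 0.17 (adjusted p = 0.102) and passed with the replicate block (adjusted p = 0.0402, and 0.0402 to 0.426 over the alternatives). The 3 h difference of RelA-dTAD ended as a call without any 1 of the 4 sets compared (adjusted p of up to 0.342), and the 8 h one without either RelA-WT set or set 1 of RelA-dTAD (up to 0.114). The average rise in RelA-WT (0.39 ± 0.10, adjusted p = 0.0116) ended without either RelA-WT set (0.31 and 0.48), the 8 h rise in EV without either EV set (0.44 and 0.32), and the 3 h rise in RelA-dTA1 (0.44 ± 0.12, adjusted p = 0.014) without set 2 (0.33). With all libraries kept but no filter on low counts, these rises also ended as calls, at adjusted p of 0.103, 0.102 and 0.136 in that order. So did the differences of RelA-dTAD from RelA-WT, at 0.321 at 3 h and 0.0608 at 8 h.

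Traf5, a close relative of Traf2 at the same receptors, passed at 8 h in all 4 replicated constructs with changes of like size. At that time 48.7%, 46.9%, 34.6% and 27.4% of all genes were called in EV, RelA-dTAD, RelA-dTA1 and RelA-WT. In its 8 h change Traf5 lay above 77.1%, 73.1%, 85.5% and 88.6% of all genes in that order. Its levels at 0 h and 8 h were 18.1 and 19.8, then 24.6 and 28.9 CPM in EV, and 18.2 and 19.2, then 22.2 and 26.2 CPM in RelA-dTAD. They were 17.3 and 21.0, then 28.5 and 29.0 CPM in RelA-dTA1, and 16.6 and 17.0, then 24.9 and 26.9 CPM in RelA-WT. In each construct the 8 h libraries lay above the 0 h libraries, and at 8 h the constructs overlapped apart from RelA-dTA1, which lay above RelA-dTAD and RelA-WT. The 8 h change was 0.54 ± 0.17 in EV (adjusted p = 0.0101), 0.40 ± 0.17 in RelA-dTAD (adjusted p = 0.0497), 0.58 ± 0.16 in RelA-dTA1 (adjusted p = 0.00727) and 0.63 ± 0.17 in RelA-WT (adjusted p = 0.00677), and no difference between constructs was called. The calls are not firm: over the alternatives the adjusted p reached 0.138 in EV, 0.339 in RelA-dTAD, 0.217 in RelA-dTA1 (0.47 without set 1) and 0.128 in RelA-WT, each without 1 set of that construct. The 3 h rise in RelA-WT, 0.62 ± 0.17 (adjusted p = 0.0113), was 0.77 and 0.44 without set 1 and set 2 (adjusted p = 0.0795 and 0.389). With the replicate block the average changes in RelA-WT (0.37 ± 0.14) and RelA-dTA1 (0.32 ± 0.13) passed as well, at adjusted p of 0.0213 and 0.0354, and so did the 3 h change in RelA-dTA1, at 0.0104.

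Ripk1, the kinase and scaffold that the cIAPs ubiquitinate, had small fold changes with narrow spread. Its levels at 0 h and 8 h were 58.2 and 57.5, then 64.3 and 66.4 CPM in EV, and 66.6 and 65.9, then 72.0 and 68.5 CPM in RelA-dTAD. They were 57.9 and 60.6, then 84.6 and 81.3 CPM in RelA-dTA1, and 64.8 and 62.7, then 87.7 and 80.8 CPM in RelA-WT. At 8 h EV and RelA-dTAD lay below RelA-dTA1 and RelA-WT without overlap. The 8 h change was 0.21 ± 0.06 in EV (adjusted p = 0.00794), 0.10 ± 0.06 in RelA-dTAD (adjusted p = 0.199), 0.49 ± 0.06 in RelA-dTA1 (adjusted p = 1.76e-06) and 0.40 ± 0.06 in RelA-WT (adjusted p = 3.62e-05). RelA-dTAD minus RelA-WT at 8 h was -0.30 ± 0.09 (adjusted p = 0.0291), a call that ended under 5 of 8 alternatives, where the adjusted p reached 0.686 without the filter on low counts; these include either RelA-dTAD set and set 1 of RelA-WT, at -0.28 to -0.34. With the replicate block the same difference at 3 h, also -0.30 ± 0.09 (adjusted p = 0.081), passed at 0.048, and the 1 h change in EV, 0.26 ± 0.06 (adjusted p = 0.0577), passed at 0.0423. The calls in EV at 8 h and on average (0.18 ± 0.05, adjusted p = 0.0207) and the 3 h call in RelA-WT (0.25 ± 0.06, adjusted p = 0.00674) ended without the filter and without either set of that construct, at adjusted p of up to 0.598. The 3 h call (0.31 ± 0.06, adjusted p = 0.00119) and the average call (0.25 ± 0.05, adjusted p = 0.00142) in RelA-dTA1 ended without the filter and without its set 1, at up to 0.326.

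Tradd, the first adaptor at the TNFR1 death domain, stood between 13.7 and 23.3 CPM over all 75 libraries. Its 8 h change was -0.33 ± 0.15 in EV (adjusted p = 0.0745), -0.33 ± 0.15 in RelA-dTAD (adjusted p = 0.0671, and 0.0486 with the replicate block, with a range of up to 0.623), 0.09 ± 0.14 in RelA-dTA1 (adjusted p = 0.693) and 0.18 ± 0.15 in RelA-WT (adjusted p = 0.403). The 8 h levels were 14.6 and 15.8 CPM in EV, 14.9 and 16.2 CPM in RelA-dTAD, 18.6 and 22.1 CPM in RelA-dTA1 and 20.1 and 18.3 CPM in RelA-WT, so EV and RelA-dTAD lay below RelA-dTA1 and RelA-WT without overlap, and the differences of EV and RelA-dTAD from RelA-WT were both -0.51 ± 0.21 (adjusted p = 0.103 and 0.119). Traf6 stood between 29.4 and 49.4 CPM, and its changes at single times lay between 0.05 and 0.30 in the 4 replicated constructs. Its set 1 libraries were the higher ones at 0 h, with 41.9 and 29.4 CPM in EV and 38.6 and 33 CPM in RelA-WT (set 1 and set 2). With the replicate block its 8 h change in RelA-dTAD, 0.23 ± 0.22 (adjusted p = 0.394), passed at an adjusted p of 0.0275 (up to 0.672 over the alternatives).

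The 8 h comparisons go with other shifts between the constructs. The summed level of the 3 endothelial markers, which is nearly all Kdr since Pecam1 and Cdh5 stayed at or below 0.803 and 0.815 CPM, was 41.3 to 45.2 CPM in EV, 38.2 to 43.0 in RelA-dTAD, 28.1 to 30.9 in RelA-dTA1 and 23.7 to 30.5 in RelA-WT. The part of this shift, and of the unequal Rela level, in the 8 h results was not tested. The 4 macrophage markers summed to 3.82 to 5.59 CPM in EV, 2.04 to 4.81 in RelA-dTAD, 2.83 to 2.87 in RelA-dTA1 and 3.04 to 3.09 in RelA-WT at that time, and the 3 epithelial markers to at most 5.27 CPM in any library. In bulk RNA, fewer cells with a message and less of it per cell cannot be told apart.

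The 7 constructs with single libraries were tested in a fit of all 75 libraries in which they borrow the spread of the replicated groups. Their average TNF change was called in 10 of 63 pairs of gene and construct, all higher, against 2.88% of all such pairs, and differed from RelA-WT in 3 of 63, all lower, against 0.151%. Birc3 and Birc2 made up those 3. With the replicate block the counts were 18 and 11. The 8 further average calls were 3 of Traf5 or Traf2, 2 of Traf3, 2 of Traf1 and 1 of Birc2. The share of all genes called with the block is not given here, so 18 and 11 have no matching background.

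RelA-DB and RelA-dCterm were near EV and RelA-dTAD for the ligase genes. Over 0, 0.5, 1, 3 and 8 h Birc3 stood at 13.6, 14.6, 15, 16.4 and 23.9 CPM in RelA-DB and at 15.2, 15.3, 13.3, 19.1 and 37.8 CPM in RelA-dCterm. Birc2 stood at 34.4, 34.6, 33.6, 31.2 and 17.3 CPM in RelA-DB and at 37.6, 33.6, 31.7, 27.4 and 18.8 CPM in RelA-dCterm, with the 8 h library lowest in each. None of the 9 genes was called in either construct on average; for Traf3 in RelA-DB (0.54 ± 0.16, adjusted p = 0.0537) the block gave an adjusted p of 0.00753 (0.00753 to 0.0847 over the alternatives). The average change of Birc3 was lower than in RelA-WT by -1.71 ± 0.22 in RelA-DB (adjusted p = 0.00015) and -1.66 ± 0.22 in RelA-dCterm (adjusted p = 0.000183). For Birc2 the differences were -1.03 ± 0.25 in RelA-DB (adjusted p = 0.0664, and 0.0241 with the block, with a range of 0.0031 to 0.531) and -1.21 ± 0.25 in RelA-dCterm (adjusted p = 0.0231), where the call ended without set 2 of RelA-WT (-0.98, adjusted p = 0.339). Traf3 at 8 h stood at 91.9 CPM in RelA-DB, near EV, and at 58.4 CPM in RelA-dCterm, nearer RelA-dTAD; the average difference of RelA-dCterm from RelA-WT, -0.62 ± 0.19 (adjusted p = 0.235), passed with the block at 0.0424 (up to 0.685). Traf1 had no read at 0 h in RelA-dCterm and 19 reads at 8 h, so its fitted change has no interpretable size.

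**Figure D4:**
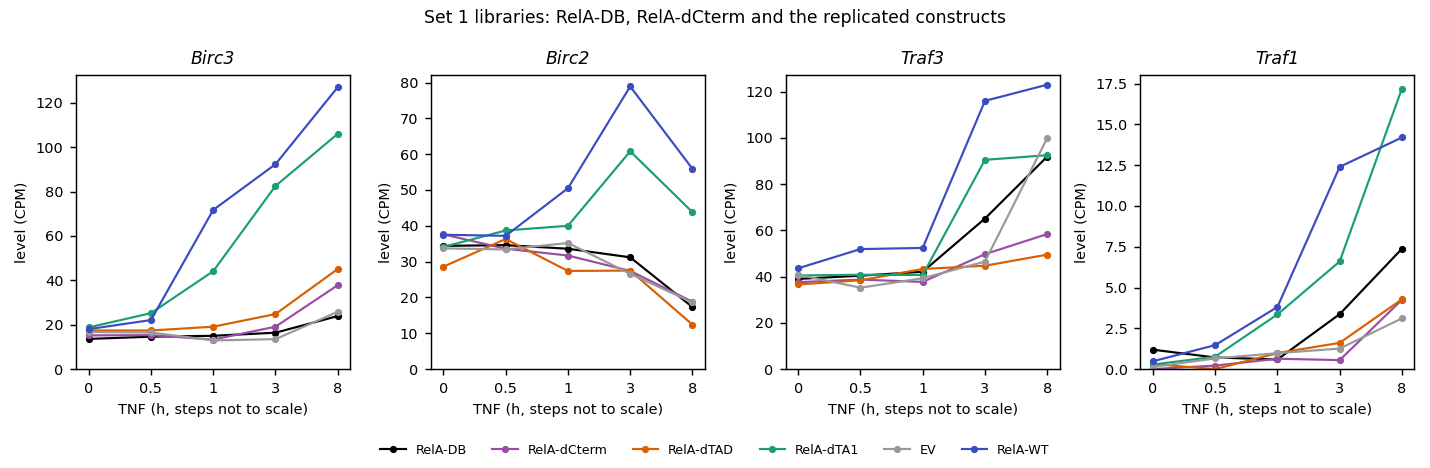
Levels of Birc3, Birc2, Traf3 and Traf1 (CPM, y axis from 0) against hours of TNF (steps not to scale) in the set 1 libraries, 1 library per point. RelA-DB ends near EV for Traf3 (91.9 and 99.9 CPM at 8 h), while RelA-dCterm and RelA-dTAD end at 58.4 and 49.5 CPM.

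Among the TA2 constructs, RelA-TA2_CI_S467A, RelA-TA2_CI and RelA-TA2_S467A had average Birc3 changes near that of RelA-WT, and the 2 constructs that also lack TA1 had smaller values. Birc3 at 1, 3 and 8 h stood at 26.9, 46.1 and 72.6 CPM in RelA-TA2_CI_S467A-dTA1 and at 53.7, 97.6 and 116 CPM in RelA-TA2_CI_S467A. It stood at 26.2, 47.2 and 72.3 CPM in RelA-TA2_CI-dTA1 and at 51.0, 92.9 and 109 CPM in RelA-TA2_CI. RelA-TA2_S467A had 74.3, 105 and 104 CPM, within 10 CPM of the set 2 RelA-WT library at each time. At 1 h the set 2 libraries of RelA-WT and RelA-dTA1 stood at 82.0 and 53.4 CPM. RelA-TA2_CI_S467A and RelA-TA2_CI were thus nearer RelA-dTA1 than RelA-WT at 1 h. The average change of Birc3 was called in all 5, at 1.16 ± 0.16 (adjusted p = 0.000171), 1.95 ± 0.17 (adjusted p = 8.52e-08), 1.14 ± 0.17 (adjusted p = 0.000264), 1.76 ± 0.17 (adjusted p = 6.15e-07) and 1.96 ± 0.17 (adjusted p = 4.78e-08) in that order.

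Birc2 at 3 h stood at 34.1 CPM in RelA-TA2_CI_S467A-dTA1 and 64.8 in RelA-TA2_CI_S467A, and at 32.9 CPM in RelA-TA2_CI-dTA1 and 69.5 in RelA-TA2_CI, with 99.6 in RelA-TA2_S467A. At 3 h the 2 constructs with both CI and dTA1 thus stood near their 0 h level of 33.9 and 31.9 CPM, and at 8 h they stood at 28 and 25.1 CPM. RelA-dTA1, which also lacks TA1, had 60.8 and 67.0 CPM at 3 h. RelA-TA2_S467A reached the level of RelA-WT in set 2 (96.0 CPM). The single 0 h library of RelA-TA2_CI, at 27.1 CPM, was the lowest of the 15 libraries at 0 h, and that of RelA-TA2_CI_S467A stood at 32.5 CPM. The average change of Birc2 was called in RelA-TA2_CI (0.88 ± 0.20, adjusted p = 0.0188) and RelA-TA2_S467A (0.83 ± 0.20, adjusted p = 0.0172). In RelA-TA2_CI_S467A it was 0.53 ± 0.20, not called in the main fit but passing with the block. In the 2 constructs with both CI and dTA1 it was -0.14 ± 0.19 and -0.09 ± 0.19. Traf3 at 8 h stood at 62.5 CPM in RelA-TA2_CI_S467A-dTA1 and 91.1 in RelA-TA2_CI_S467A, and at 56.5 CPM in RelA-TA2_CI-dTA1 and 98.2 in RelA-TA2_CI, with 123 in RelA-TA2_S467A. Its average change was called in RelA-TA2_CI (0.57 ± 0.15, adjusted p = 0.0442) and RelA-TA2_S467A (0.80 ± 0.15, adjusted p = 0.00181), and in RelA-TA2_CI_S467A it was 0.51 ± 0.15 (adjusted p = 0.0722, and 0.000808 with the block). The 10th call was Traf1 in RelA-TA2_CI_S467A, at 2.69 ± 0.71 (adjusted p = 0.0369), where its reads were 9 at 0 h and 146 at 8 h.

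The effect of losing TA1 was averaged over the 2 CI backgrounds, a comparison added after the levels had been seen. It was -0.82 ± 0.19 for Birc2 (unadjusted p of 0.000282, adjusted p = 0.223), -0.71 ± 0.15 for Birc3 (unadjusted p of 0.000109, adjusted p = 0.126) and -0.37 ± 0.14 for Traf3 (adjusted p = 1). This was 0 of 9 genes called, against 0.0265% of all 15090 genes, with 3 of 9 at an unadjusted p under 0.05 and 1 of 9 by the DESeq2 Wald test. With the replicate block Birc2 and Birc3 passed, at adjusted p of 0.0168 (0.00274 to 0.195 over the alternatives) and 0.00474 (0.00474 to 0.153). Against RelA-WT, the average change of Birc3 was -0.87 ± 0.19 in RelA-TA2_CI_S467A-dTA1 and -0.90 ± 0.19 in RelA-TA2_CI-dTA1 (adjusted p = 0.0842 and 0.0731), and with the block the adjusted p was 0.00308 and 0.00423 (up to 1 over the alternatives). That of Traf3 was -0.64 ± 0.18 and -0.80 ± 0.18 (adjusted p = 0.413 and 0.0873), and with the block 0.00662 and 0.000629 (up to 1 and 0.662). For Birc2 it was -0.88 ± 0.23 and -0.83 ± 0.24 (adjusted p = 0.363 and 0.412), and only the first passed with the block, at 0.0267.

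**Figure D5:**
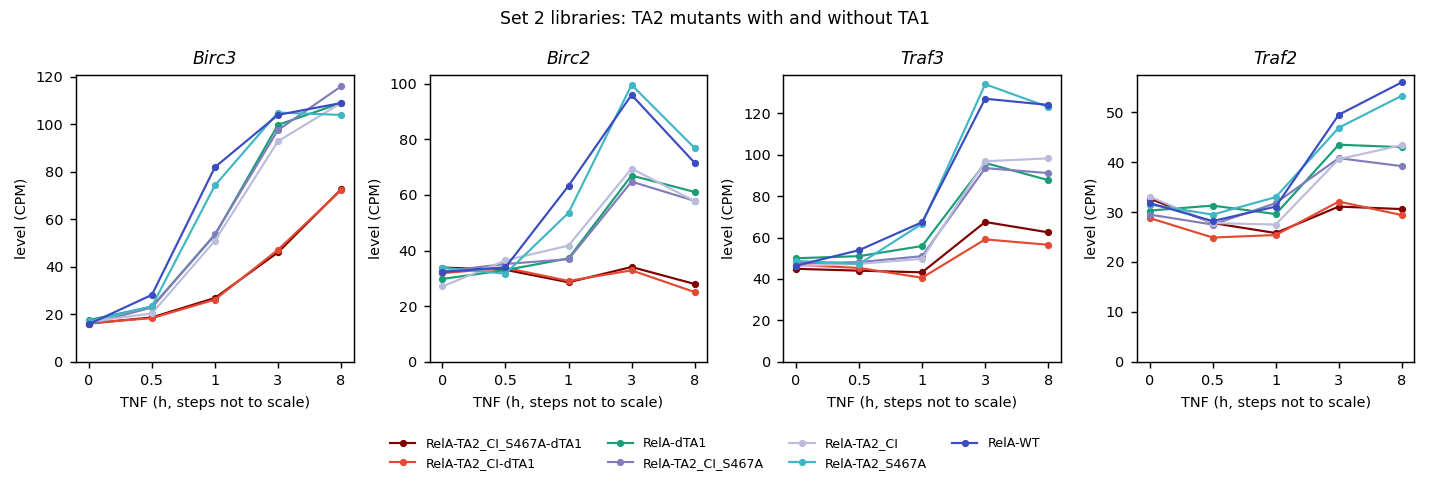
Levels of Birc3, Birc2, Traf3 and Traf2 (CPM, y axis from 0) against hours of TNF (steps not to scale) in 7 constructs of set 2, 1 library per point. At 3 and 8 h the 2 constructs with both CI and dTA1 are lowest (Birc2 at 3 h at 34.1 and 32.9 CPM), RelA-dTA1 runs with the CI constructs that keep TA1, and RelA-TA2_S467A runs with RelA-WT.

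The rest of the pathway was read from a list of 31 other TNF receptor and noncanonical NF-kB genes, of which 30 were tested (Cd40 did not pass the filter). In RelA-WT 10 rose, 1 fell and 19 did not pass the test on average, where 8.67% of all genes were called, and the median log2 change was 0.19 over the list and -0.02 over all genes tested. The largest of these rises was that of Tnfaip3, the ubiquitin editor A20, by 4.48 ± 0.32, and its partner Tnip1 rose by 1.34 ± 0.11. Relb rose by 1.78 ± 0.32, Nfkb2 by 1.52 ± 0.08 and Map3k14, which encodes NIK, by 0.78 ± 0.24. Mlkl, the executor of necroptosis, rose by 0.70 ± 0.10 and Casp8 by 0.33 ± 0.09. Tank (0.56 ± 0.12), Spata2 (0.52 ± 0.09) and Chuk (0.32 ± 0.09) also rose, and Tab1, a subunit of the TAK1 complex, fell by 0.45 (SE 0.14). The list had 6 genes higher and 0 lower in EV, 8 and 0 in RelA-dTAD, and 10 and 1 in RelA-dTA1, where 13.5%, 10.7% and 10.1% of all genes were called in either direction.

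EV minus RelA-WT was called on average for 4 of the 30 genes tested, all lower in EV, against 1.77% of all genes. They were Tnfaip3 (-3.78 ± 0.42), Tnip1 (-1.46 ± 0.14), Nfkb2 (-0.94 ± 0.11) and Mlkl (-0.56 ± 0.14). RelA-dTAD minus RelA-WT was called for 3, against 1.05% of all genes: Tnfaip3 (-3.08 ± 0.39), Tnip1 (-1.54 ± 0.14) and Nfkb2 (-1.02 ± 0.11). At 8 h the change of 5 genes of the list was called lower than in RelA-WT and that of 2 higher, in EV and in RelA-dTAD alike. Over the 4 TNF times 5.48% and 4% of all pairs of gene and time were called in these comparisons. The share of all genes at 8 h alone is not given here, so the 8 h counts of the list have no matching background. The 2 with a larger change than in RelA-WT were Map3k14 (1.24 ± 0.40 and 1.37 ± 0.40, adjusted p = 0.033 and 0.0248) and Cflar, the caspase-8 inhibitor cFLIP (0.75 ± 0.18 and 0.86 ± 0.17, adjusted p = 0.00341 and 0.00147). At 8 h EV and RelA-dTAD thus had a lower change of Birc2 and Birc3 than RelA-WT. Traf3 differed from RelA-WT in RelA-dTAD and was not called in EV. The higher change of Map3k14 in EV and RelA-dTAD rests on the main fit alone. The alternatives were run for the adaptor and ligase genes and not for the pathway list. Whether the Map3k14 and Cflar calls hold under them was therefore not tested, and both genes were singled out because their 8 h difference was called.

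Over the 60 TNF changes of all 15 courses of construct and set, the genes whose log2 CPM change ran closest to each called gene were given as a description with no test; the points share libraries and 0 h values. Closest to Birc3 were Icam1 (Pearson r = 0.963), Vcam1 (0.959) and Tnfaip2 (0.948), among 10688 genes. Closest to Birc2 were Cyp26b1 (0.926), Tlr2 (0.916) and Ikbke (0.913). Closest to Traf3 were Slc11a2 (0.927), Nfkb2 (0.899) and Tbk1 (0.895), and closest to Traf2 were Traf3 itself (0.856), Slc11a2 (0.844) and Susd6 (0.833). Traf1 lay below the 5 CPM required. Within the set the pairs with the highest r were Traf2 with Traf3 (0.856) and Traf3 with Birc3 (0.739), and Birc2 with Birc3 had 0.65.

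The genes lie at chr9:7818227-7837064 (Birc2, ENSMUSG00000057367.10, minus strand) and chr9:7848699-7873186 (Birc3, ENSMUSG00000032000.15, minus strand), chr2:34941750-34961772 (Traf1, ENSMUSG00000026875.12, minus), chr2:25517982-25546940 (Traf2, ENSMUSG00000026942.11, minus), chr12:111166370-111267153 (Traf3, ENSMUSG00000021277.14, plus), chr1:191997205-192092559 (Traf5, ENSMUSG00000026637.11, minus), chr2:101678429-101701669 (Traf6, ENSMUSG00000027164.8, plus), chr13:34002363-34037147 (Ripk1, ENSMUSG00000021408.12, plus) and chr8:105258286-105264609 (Tradd, ENSMUSG00000031887.11, minus), in mm10. Exons of Ripk1 overlap those of Gm17084 on the same strand and Serpinb6a on the other, and exons of Traf5 overlap Mir3473c and Gm26879, so reads there are uncertain. Of the 50-base windows of their transcripts, Birc2 and Birc3 share 65 with each other, of 4579 and 5079. Windows shared with any other gene made up 7.56% in Birc3, 7.87% in Ripk1, 4.57% in Traf5, 1.79% in Traf2, 1.49% in Birc2 and 0.133% in Traf1, where reads may be split or lost, and none in Tradd, Traf3 and Traf6.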

How the data were processed

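RNA was sequenced as polyA libraries of 75 samples in 2 deposited sets. The authors deposited raw gene counts. The tools named were cutadapt 1.9.1, STAR, featureCounts 1.5.0 and DESeq2 with the mm10 build, per the submitters' processing notes. Whether counting used strand is not given in the sources used here. No 2 libraries held identical counts.

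Counts as deposited were tested with edgeR 4.0.16 (R 4.3.3; TMM library sizes, filterByExpr, robust quasi-likelihood test), with p adjusted by Benjamini-Hochberg over all genes at a threshold of 0.05. One fit held the 40 libraries of EV, RelA-dTAD, RelA-dTA1 and RelA-WT (20 groups, 13665 genes, 20 residual degrees of freedom). The other held all 75 (55 groups, 15090 genes, also 20), where groups of 1 library are assumed to vary like the replicated ones. SE is the log2 change divided by the square root of its F statistic. CPM used TMM factors over all 75 libraries, and log2 CPM a prior count of 2.

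Replicate numbers are the sets per the labels. Over 190 pairs of groups the correlation of same-numbered deviations from the group means was 0.291 to 0.549, so libraries of a set deviated together. The sets also differ in depth, and where the shared deviation comes from was not tested. The main fits left the set out. With the set as replicate block 34 single-gene calls were added and none ended, so counts from the main fits can be too low. Alternatives were a replicate block, DESeq2 1.42.0 size factors, no filter on low counts, the DESeq2 Wald test and leaving out each set of a construct. RelA-dTAD minus EV at single times and the loss of TA1 in the CI backgrounds were added after the data were seen. The fit was tested on simulated data.

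The genes named are the 9 genes always, those of the pathway list called in the average TNF change of RelA-WT (with others of the list where a construct difference was called, chosen after their values were seen), and the 3 genes of highest Pearson r with each called gene, among genes with a mean of at least 5 CPM. Genes and lists were chosen with earlier results of these data known. Promoter sequences are from RefSeq (GRCm38.p6), and 8 of 9 genes matched.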

Additional observations from a re-analysis of the deposited data

Results flagged for a closer look

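These results stand here because the TNF change differed between constructs by a test of the difference itself (edgeR quasi-likelihood test, adjusted p under 0.05). All values are log2 differences, all are lower than in RelA-WT, and the comparisons share the RelA-WT libraries.

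For EV minus RelA-WT, Birc3 differed by -1.84 on average, -2.30 at 1 h, -2.70 at 3 h and -1.83 at 8 h. Birc2 differed by -0.95 on average, -1.51 at 3 h and -1.46 at 8 h, and Traf3 by -1.10 at 3 h.

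For RelA-dTAD minus RelA-WT, Birc3 differed by -1.51 on average, -2.04 at 1 h, -1.99 at 3 h and -1.53 at 8 h. Birc2 differed by -0.96 on average, -1.41 at 3 h and -1.77 at 8 h. Traf3 differed by -0.71 on average, -1.20 at 3 h and -1.13 at 8 h. Traf2 differed by -0.64 at 3 h and -0.71 at 8 h, and Ripk1 by -0.30 at 8 h.

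Among the constructs with single libraries, Birc3 differed by -1.71 in RelA-DB and -1.66 in RelA-dCterm on average, and Birc2 by -1.21 in RelA-dCterm.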

How the results depend on the processing

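The alternatives were run for the adaptor and ligase genes and not for the pathway list. No value of an adaptor or ligase gene changed direction while called in any alternative run. Of the single-gene results, the replicate block kept 488 on their side of the threshold and added 34 calls; it ended none, and it changed no call beyond those 34. DESeq2 size factors kept 520 and added 2, the DESeq2 Wald test kept 504, added 9 and ended 3, and dropping the filter on low counts kept 492, added 15 and ended 15. Leaving out 1 set kept 1252 and ended 62, with fewer libraries in each such fit.

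Counts of called genes moved by over 1.5 times in these cases. Without the filter, single-time calls in RelA-dTAD were 3 in place of 6, average calls in EV 1 in place of 2, differences of the single-library constructs from RelA-WT 8 in place of 3, RelA-dTAD minus EV at single times 1 in place of 0, and loss of TA1 2 in place of 0. With the DESeq2 Wald test, the single-library differences were 7 and loss of TA1 was 1. With the replicate block, the single-library averages were 18 in place of 10, their differences 11, RelA-dTAD minus EV 1 and loss of TA1 2. The cause was not tested, and no share of all genes called under these settings is given beside the counts. Leaving out 1 set gave average calls of 3 in RelA-WT, 2 to 4 in RelA-dTA1, 0 in RelA-dTAD and 0 in EV. Single-time calls were then 3 in RelA-dTAD and 3 to 4 in EV, and average differences from RelA-WT were 1 to 2 in EV and 1 to 2 in RelA-dTAD. Depth limits Traf1 most, with at most 19 reads at 0 h.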
